A study of Homo sapiens with 6 samples.

Results

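LUC7L3, known earlier as CROP, was represented by 111 of the 45220 features on a splicing-sensitive oligonucleotide array, and these features did not move together after UV irradiation. A feature is a probe spot that reads a short stretch of a transcript, so a gene with many features gives many partly separate readings of its RNA. The members were all features whose platform annotation names LUC7L3 or its accessions, and they were looked at here because some of them had been seen to rise and others to fall against the rest of the gene. Of the 111 features, 110 carried the same RefSeq transcript accession, and feature 12049 alone carried the other. The array design named 843 genes through 40146 features. Probe sequences and exon positions were not used here, so it is not known which exons or junctions the features read or which of them share target sequence. Features of the same gene are not replicates of the condition.

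LUC7L3 is a relative of the yeast protein Luc7, a component of the U1 snRNP, the particle that recognises the 5′ splice site when an intron is first marked for removal. It has zinc fingers and a C-terminal part rich in arginine and serine, and its older name comes from its overexpression in cisplatin-resistant cells. LUC7L and LUC7L2 are its human relatives.

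RNA came from Hep3B, a human hepatoma cell line known to lack p53, collected 6 hours after 10 J/m2 of UV light, and from untreated Hep3B cells. No other agent is named in the labels. The labels give 3 biological replicates, each hybridised on a direct array with the irradiated RNA in Cy5 and on a dye-swap array with it in Cy3, so that 6 arrays were made. Values are log2 ratios of irradiated over untreated RNA, in the likely direction read from the dyes, and a feature below 0 was lower after UV. The ratio is between RNA pools of whole cultures, so fewer cells holding a transcript and less of it per cell cannot be told apart. No scanner signal was used here, so the number of biological replicates, 3, is what limits the precision stated. An array held a value for 36532 to 38392 features, and array medians lay between -0.010 and 0.010. Arrays of the same orientation correlated at 0.84 to 0.94 and arrays of opposite orientation at 0.54 to 0.66 over all features. None of 8 hepatocyte markers was measured, and of 5 markers of other cells only CD14 was, with a mean log2 ratio of 0.25. A ratio of irradiated over untreated RNA does not give the level of a marker, so the cell type could not be checked on these values.

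The log2 ratios of both orientations were averaged within each replicate, and a limma fit over all testable features with Benjamini-Hochberg adjustment gave a call at an adjusted p of 0.05. Since the LUC7L3 features were picked on this same contrast, their calls are given as a description and support nothing. Of the 111 features, 99 had a complete pair of arrays in at least 2 replicates and entered the fit, 91 of them with all 3 replicates and 8 with 2. The other 12 had 1 complete replicate (8 features) or 0 (4 features), and their 33 array values lay between -0.43 and 0.20. Among the 99, 63 were called lower (63.6%, against 28.2% of all features), 2 were called higher (against 26.3% of all features) and 34 were not called. With a fold over 1.3 in addition, 41 were lower (41.4%, against 11.6% of all features) and 2 were higher (against 2.21%). The median of the 99 mean log2 ratios was -0.22, where the median over all features was 0.012.

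At the gene level, the mean over all LUC7L3 features was -0.59, -0.39 and -0.52 on the 3 direct arrays and -0.31, -0.23 and -0.40 on the 3 dye-swap arrays. All 6 arrays thus lay below 0, the direct arrays lower on average (-0.50) than the dye-swap arrays (-0.31). The replicates gave -0.451, -0.306 and -0.456, a mean log2 ratio of -0.40 ± 0.085 (SD, n = 3) or 1.32-fold lower after UV. The median over the features of the gene was closer to 0, at -0.26. Without the features that left the rest of the gene, described next, the mean log2 ratio of the other 84 features was -0.25 ± 0.076 (SD, n = 3). The features left out were chosen on these same values and most were low, so the shift toward 0 follows from the choice.

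The splicing index of a feature is its log2 ratio less the average of all further features of the gene, taken replicate by replicate, so it shows which readings left the rest of the gene. An index was called at an adjusted p of 0.05 and a fold over 1.4, which is 0.49 on the log2 scale. Among the 99 LUC7L3 features, 23 were called lower (23.2%, against 2.05% of all features), 4 were called higher (4.04%, against 1.92%) and 72 were not called. The rule chose the gene for this contrast, so nothing is read from those shares. The feature just inside the lower threshold was 14073, with an index of -0.53, and the nearest outside it was 23413 at -0.39. On the upper side, feature 10419 lay just inside at 0.51 and feature 25889 just outside at 0.43.

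Feature 12049, the only feature annotated with the second transcript accession, was the lowest of the gene by a wide gap. Whether it reads that transcript alone is not known here. Its log2 ratio was -2.47, -2.06 and -2.28 on the direct arrays and -2.69, -2.08 and -2.51 on the dye-swap arrays. It was the lowest LUC7L3 feature on all 6 arrays. The mean was -2.35 ± 0.258 (SD, n = 3), or 5.09-fold lower after UV. Against the other features of the gene its index was -1.95 ± 0.063 (SE, n = 3), or 3.87-fold lower. The next lowest feature, 40900, had a mean of -1.19, which leaves a gap of 1.16 on the log2 scale.

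Features 24317 and 42984 were the only LUC7L3 features called higher against untreated cells. Feature 24317 gave 1.16, 1.36 and 1.23 on the direct arrays and 1.38, 1.63 and 1.39 on the dye-swap arrays. Feature 42984 gave 1.29, 1.34 and 1.42 on the direct arrays and 1.51, 1.41 and 1.19 on the dye-swap arrays. The pair held the top 2 places among LUC7L3 features on all 6 arrays, and its lowest array value, 1.16, was above every other LUC7L3 value. Feature 24317 had a mean log2 ratio of 1.36 ± 0.120 (SD, n = 3), or 2.56-fold higher, and an index of 1.79 ± 0.028 (SE), or 3.46-fold higher. For feature 42984 the mean was 1.36 ± 0.049 (SD, n = 3), or 2.57-fold higher, and the index 1.79 ± 0.039 (SE), or 3.47-fold higher. Their means differed by less than the spread between replicates of either feature, and whether they read the same stretch of RNA is not known here.

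The highest feature after this pair had a mean of 0.18, a gap of 1.18 on the log2 scale, while no neighbouring LUC7L3 features between the extremes were more than 0.14 apart. From the lowest to the highest feature the means spanned 3.71 on the log2 scale, or 13.1-fold. Within single arrays the span was 3.76, 3.42 and 3.70 on the direct arrays and 4.20, 3.71 and 3.90 on the dye-swap arrays. Each array alone therefore held LUC7L3 readings both more than 2-fold lower and more than 2-fold higher after UV.

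A further pair of features was called higher against the rest of the gene without being clearly above 0. Feature 10419 gave -0.09, -0.14 and -0.11 on the direct arrays and 0.20, 0.46 and 0.22 on the dye-swap arrays, so its sign followed the dye orientation. Feature 11117 gave 0.01, 0.05 and 0.10 on the direct arrays and 0.14, 0.84 and -0.09 on the dye-swap arrays, with the dye-swap array of replicate 2 far from the others. Their mean log2 ratios were 0.09 and 0.18, and their indices were 0.51 and 0.60. Set against the median of the other features instead of their mean, the indices were 0.34 and 0.42, under the fold threshold. Both features stayed within 1.3-fold of untreated cells.

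The other 22 features called lower by the index formed a band well separated from 12049. Their mean log2 ratios ran from -1.19 to -0.94 with a median of -1.01, and their indices from -0.78 to -0.53. Every one of their array values was below 0, from -1.62 to -0.52. Over the band, the median log2 ratio was -1.11, -0.92 and -1.10 in replicates 1, 2 and 3, and replicate 2 was nearest to 0 in 22 of 22 features.

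Within this band, 10 features gave a lower log2 ratio on the direct than on the dye-swap arrays past the test of orientation given later. The other 12 did not pass it. Over all features, 48.6% passed it either way, 22.3% with the direct arrays lower, and 0 passed without replicate 2 or replicate 3. The 10 were features 38668, 5641, 38953, 36790, 8295, 31299, 32516, 5806, 14278 and 27084, and the 12 were 40900, 32976, 37190, 13515, 43316, 36581, 42616, 1366, 29958, 18441, 14073 and 14711. Feature 36790 gave -1.62, -1.36 and -1.47 on the direct arrays but -0.67, -0.63 and -0.81 on the dye-swap arrays. Feature 43316 gave -0.99, -0.79 and -0.96 on the direct arrays and -1.04, -0.96 and -1.17 on the dye-swap arrays. Feature 40900, the lowest of the band, gave -1.42, -1.08 and -1.29 on the direct arrays and -1.02, -1.06 and -1.25 on the dye-swap arrays. The groups of arrays did not overlap for 36790 and overlapped for 43316 and 40900, while the means of the 3 features, -1.09, -0.98 and -1.19, were close. Over the band, the median of the direct means was -1.23 (range -1.48 to -0.91) and that of the dye-swap means -0.93 (range -1.11 to -0.61). All 22 features were thus lower after UV in both orientations, but not all kept the index call in each. On the dye-swap arrays alone, 38953, 36790, 8295, 31299, 32516 and 5806 fell under its fold threshold, with indices from -0.47 to -0.30. On the direct arrays alone, 43316, 1366, 14073 and 14711 did so, with indices from -0.48 to -0.42.

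Next in order came 18 features between -0.80 and -0.42, with a median log2 ratio of -0.64, called lower against untreated cells but not against the gene. Features 23413 and 23680 led them, both with a mean of -0.80. Feature 23413 gave -1.20, -1.17 and -1.19 on the direct arrays and -0.37, -0.38 and -0.51 on the dye-swap arrays, so it was below 0 in both orientations but their values did not overlap. The last of them, feature 23140, gave -0.45, -0.35 and -0.43 on the direct arrays and -0.29, -0.43 and -0.55 on the dye-swap arrays. It lay at the level of the gene mean, with an index of -0.00.

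The remaining 56 tested features, 10419 and 11117 among them, lay from -0.34 to 0.18 around a median of -0.12. Over all tested features, 28.2% were called lower against untreated cells. Of the 56, left after bands were cut on the same values, 22 were called lower and 34 were not called. Feature 6253, the lowest of them, gave -0.36, -0.18 and -0.46 on the direct arrays and -0.42, -0.19 and -0.41 on the dye-swap arrays, all below 0. Feature 18268, with a mean of -0.03, gave -0.07, -0.01 and 0.07 on the direct arrays and -0.08, 0.04 and -0.11 on the dye-swap arrays. Most of the gene's readings were thus near or slightly below 0. The 41 features more than 1.3-fold lower were each below 0 on all 6 arrays.

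The direct and the dye-swap array of a replicate measure the same comparison with the dyes exchanged, and their difference was not used in choosing the features. Divided by 2, so that it has the size of a deviation from the mean, it was tested with limma over all features. Of the 99 LUC7L3 features, 45 were called (45.5%, against 48.6% of all features), a share near the background. The direct array was the lower in 43 of them (43.4%, against 22.3% of all features) and the higher in 2 (2.02%, against 26.3%). The 2 were 31633 and 22598. For the gene mean the value was -0.093 ± 0.019 (SE, n = 3, adjusted p = 0.0204), lower on the direct arrays in 3 of 3 replicates. The share of all gene means called in this way is not given here. The counts of features depended on replicates 2 and 3. Without replicate 1, 31 of 94 features were called (33.0%, against 43.0% of all features), and without replicate 2 or replicate 3 the limma fit called 0 of 92 and 0 of 95, and 0 of all features. At an unadjusted p of 0.05, 36 and 41 LUC7L3 features passed in these fits and 54 with all replicates.

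For the extreme features the orientations differed little beside their ratios. The difference divided by 2 was 0.08 for 12049 and -0.01 for 42984, neither called, and -0.11 for 24317 (adjusted p = 0.0157). The largest in the low band was that of feature 32516, at -0.42, with -1.56, -1.31 and -1.46 on the direct arrays and -0.52, -0.56 and -0.74 on the dye-swap arrays. In 6 features near 0 the arrays of the orientations lay on opposite sides of 0. In 5 of these the direct arrays were the negative ones, as in feature 11173, with -0.38, -0.17 and -0.33 on the direct arrays and 0.11, 0.26 and 0.14 on the dye-swap arrays. Feature 22598 went the other way, with 0.06, 0.14 and 0.07 on the direct arrays and -0.11, -0.08 and -0.09 on the dye-swap arrays. Across the 99 features, which share the same arrays, the direct and dye-swap means correlated at 0.91 (Pearson) and 0.80 (Spearman), and at 0.86 (Pearson) over the 96 without the 3 extremes.

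The features also shared an order of the replicates. Among the 91 features with all 3 replicates, replicate 2 gave the highest log2 ratio in 86 (94.5%), where this held for 43.5% of 30881 features of all named genes. Among features lower by more than 1.3-fold it held for 40 of 41 LUC7L3 features (97.6%) and for 75.9% of 3882 features of all named genes. The decrease of LUC7L3 readings was therefore smallest in replicate 2, where feature 12049 gave -2.070 against -2.580 and -2.395 in the others.

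Beside the other genes, LUC7L3 stood out by its range, through features 12049, 24317 and 42984. Among 465 genes with at least 3 indexed features, its distance between highest and lowest index, 3.75, was the widest, against a median range of 0.71. By the SD of its indices, 0.51 against a median of 0.14, it ranked 12 among them. The indices of its features other than 12049, 24317 and 42984 ran from -0.78 to 0.60, and those of LUC7L from -0.76 to 0.71. Ranges were not adjusted for the number of tested features, which was 99 in LUC7L3. Genes with index calls in both directions numbered 72. Only 6 had them past 2-fold in both directions, namely LUC7L3, the mitotic kinase AURKA, the splicing regulator MBNL1, the BCL2 family member MCL1, the splicing kinase PRP4K and RBM7, a subunit of the nuclear exosome targeting complex. Measured against untreated cells, LUC7L3 (13 features lower and 2 higher) and MBNL1 (1 lower and 8 higher) were the only genes with features past 2-fold in both directions. A feature past 2-fold higher was uncommon over the whole array, with 36 of 34301 (0.105%), while 589 (1.72%) were past 2-fold lower. These genes were ranked on the measure that chose LUC7L3, so the ranks are descriptions.

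The genes whose pair of lowest and highest index lay nearest to that of LUC7L3 were picked by the Euclidean distance of the pair, over the mean of 3 replicates. PRP4K was nearest, at a distance of 0.64, with its 51 features reaching -1.55 and 1.3. MCL1 followed at 0.67 with -1.91 and 1.13, and MBNL1 at 0.77 with -1.39 and 1.28. AURKA, at 0.79, reached -1.70 and 1.05. The fifth was TRAF6, an adaptor of NF-kB signalling, at 0.92 with -1.64 and 0.92. Tested features numbered 46 in MCL1, 137 in MBNL1, 95 in AURKA and 68 in TRAF6, against 99 in LUC7L3.

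A lone accession like that of 12049 was not particular to LUC7L3. On the array, 93 features in 93 genes carried an accession that no other feature of their gene had, and 79 of them were tested. This set was looked for after the value of 12049 had been seen, and it gets no test. Outside LUC7L3, 22 of 78 such features were called lower by the index (28.2%, against 2.05% of all features) and 1 was called higher (1.28%, against 1.92%). In 28 of the 78 the lone feature was the lowest of its gene and in 3 the highest, with no count for other features to set beside these. The median index of the 78 was -0.15 where that of all features was -0.004. The lone feature of the kinase gene DYRK1A (-2.0) was the only one lower than that of LUC7L3 (-1.95), and TRAF6 (-1.64) came next.

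The related genes were compared with untreated cells through the mean over their features, tested with limma over 775 genes with Benjamini-Hochberg adjustment. Of all these genes, 41.4% were called lower and 30.3% higher. Of 40 genes related to LUC7L3, 20 were called lower (50%), 8 higher (20%) and 12 were not called, beside those shares of all genes. Past 1.3-fold in addition, 9 of the 40 were lower, beside 18.8% of all genes. In the same fit 1 of the 40 was higher, and the share of all genes for it is not given here.

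LUC7L, the relative of LUC7L3 on the array, fell after UV. Its gene mean was -0.40, -0.50 and -0.43 on the direct arrays and -0.28, -0.37 and -0.36 on the dye-swap arrays, all below 0. The replicates gave -0.342, -0.435 and -0.396, a log2 ratio of -0.39 ± 0.025 (SE, n = 3, adjusted p = 0.000596), or 1.31-fold lower. Its 59 features did not reach the extremes of LUC7L3. Of 56 tested, 12 had an index called lower and 9 higher (37.5%, against 3.96% of all features called either way). The lowest, feature 11286, gave -1.16, -1.14 and -1.20 on the direct arrays and -1.03, -1.10 and -1.21 on the dye-swap arrays, an index of -0.76. The highest, 44118 and 38073, both had a mean log2 ratio of 0.30 and an index of 0.71. Feature 44118 gave 0.44, 0.17 and 0.42 on the direct arrays and 0.25, 0.19 and 0.36 on the dye-swap arrays, above 0 on all 6. Against untreated cells, 33 of the 56 LUC7L features were called lower and 6 higher, beside 28.2% and 26.3% of all features. LUC7L2 was not analysed here.

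Of the 10 proteins of the U1 snRNP core, which hold the U1 RNA together and touch the 5′ splice site, 8 were tested, with a median log2 ratio of 0.08. SNRPC (0.13 ± 0.016), a protein that contacts the 5′ splice site complex, and the Sm ring proteins SNRPD2 (0.20 ± 0.019) and SNRPE (0.23 ± 0.033) were higher (SE, n = 3). SNRPC and SNRPE were not called without replicate 3 (adjusted p = 0.0589 and 0.0526). The Sm proteins SNRPB (-0.10 ± 0.018) and SNRPD1 (-0.10 ± 0.031) were called lower, but the direct and dye-swap means of SNRPB were 0.13 and -0.33, and those of SNRPD1 -0.39 and 0.19. Neither was called without replicate 1 (adjusted p = 0.0622 for SNRPB and 0.188 for SNRPD1) or without replicate 3 (0.092 and 0.217). SNRNP70, which binds the first stem-loop of U1 RNA, had a log2 ratio of 0.07, SNRPA, which binds another stem-loop of it, -0.05, and SNRPD3 0.08, none of them called with all replicates. Without replicate 2, SNRNP70 was called higher at 0.10 (adjusted p = 0.00785) and SNRPD3 at 0.05 (adjusted p = 0.0465), though the direct mean of SNRPD3 was -0.28 and its dye-swap mean 0.43. SNRPF and SNRPG had no value on any array.

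Among 13 factors known to work with U1 or at the 5′ splice site, 9 were tested. Of these, 5 fell, 3 rose and 1 was not called, beside 41.4% of all genes called lower and 30.3% called higher. Their median log2 ratio was -0.24. The lowest was RBM25, a U1-associated splicing regulator, at -0.89 ± 0.065 (SE, n = 3, adjusted p = 0.000849) from a single feature. The RNA helicases DDX17 (-0.55 ± 0.052, a single feature) and DDX5 (-0.50 ± 0.024) also fell, as did TIA1 (-0.37 ± 0.034) and TIAL1 (-0.24 ± 0.017), which recruit U1 to weak 5′ splice sites. These 5 genes were below 0 in both orientations. PRPF40B rose by 0.46 ± 0.017 from a single feature, the branch point binding protein SF1 by 0.19 ± 0.020 and the cap-binding subunit NCBP2 by 0.13 ± 0.016, the last not called without replicate 3 (adjusted p = 0.0534). NCBP1, the other cap-binding subunit, had a log2 ratio of -0.00, with a direct mean of -0.10 and a dye-swap mean of 0.10.

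SR and SR-related proteins, which like LUC7L3 carry stretches of arginine and serine, were tested for 22 of 24 genes. Of these, 12 fell, 2 rose and 8 were not called, beside 41.4% of all genes called lower and 30.3% called higher. Their median log2 ratio was -0.16, where the median over all genes was -0.027. The lowest was SRSF8 at -1.13 ± 0.047 (SE, n = 3, adjusted p = 0.000234), from a single feature. The highest was SRRM2 at 0.21 ± 0.049 (adjusted p = 0.0219), which was not called without replicate 3 (adjusted p = 0.119) or on the direct arrays alone. The decrease of the LUC7L3 gene mean, -0.40, thus lay within the range of these genes. Its own features ran from -2.35 to 1.36, where those of LUC7L ran from -1.14 to 0.30.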

How the data were processed

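RNA of irradiated and untreated Hep3B cells was compared on 6 two-colour arrays, with kits for RNA and labelling that are not the same in the labels as in the methods. Background correction by normexp and LOWESS normalisation were done by the authors, who deposited log2 ratios with 2 decimals, with 15.1% to 19.2% of cells empty per array. What left a cell empty, and the genome build of the array, are not given in the sources used here. The direction, irradiated over untreated, was taken as likely from the dyes in the labels. Since columns of opposite orientation correlated above 0, those of the dye-swap arrays were taken as sign-turned before deposit. The deposited values were used as they stand, and without scanner signal no dim features were filtered and no background was corrected again.

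Features were named through the platform annotation, updated with a RefSeq symbol table by accession (38971 features), symbol (978) or synonym (197), and 5074 had no name. Both arrays of a replicate and at least 2 replicates were required for a test. Log2 ratios, indices and orientation differences were fitted with an intercept in limma 3.58.1 (R 4.3.3, statmod 1.5.0), two-sided, with Benjamini-Hochberg adjustment over the whole table, after the code had been tested on simulated data. The SE is limma's moderated one and leaves out a difference between orientations that repeats across replicates. The labels number the replicates, and deviations from the orientation means correlated at -0.007, 0.452 and 0.101 within replicates 1, 2 and 3, but direct array 1 with dye-swap array 3 at 0.425. The values thus bear the numbers out mainly for replicate 2 and not for replicate 1, and the replicate means, indices and orientation differences follow the labels.

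The LUC7L3 features and the gene lists were chosen with earlier results of these data known. LUC7L3 features were named where their index was called or lay next to a threshold, and further features shown as examples, the pair of opposite-sign examples and the lone accessions were chosen after their values were seen. Related genes were named for the whole LUC7 and U1 lists and for the lowest and highest called SR gene. Alternatives left out each replicate, used each orientation alone, dropped or changed the replicate block, centred arrays, required all 6 arrays, took gene medians, and moved thresholds.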

Additional observations from a re-analysis of the deposited data

Results flagged for a closer look

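The LUC7L3 gene mean differed between the dye orientations. The difference of direct minus dye-swap arrays divided by 2 was -0.093 on the log2 scale (limma, adjusted p = 0.0204, n = 3), the direct arrays averaging -0.50 and the dye-swap arrays -0.31. At the level of single features the same difference was called in 45 of the 99 tested LUC7L3 features (45.5%, against 48.6% of all features). When replicate 2 or replicate 3 was left out, it was called in 0 LUC7L3 features and in 0 of all features. The share of all gene means called for orientation, and the gene-level call with a replicate left out, are not given here. The difference is therefore not shown to be particular to LUC7L3. Dye and hybridisation change together between the orientations and cannot be told apart.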

How the results depend on the processing

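The LUC7L3 gene log2 ratio stayed below 0 under every alternative run and was -0.45 to -0.38 when a replicate was left out. It was -0.50 on the direct arrays alone, -0.31 on the dye-swap arrays alone, -0.26 as the median of the features, and -0.25 without the features called by the index, the last chosen after seeing the data. Leaving out a replicate gave 46 to 75 features lower, 2 higher, 22 to 23 indices lower and 4 higher. Adding a 1.3-fold threshold left 41 features lower, and the dye-swap arrays alone gave 5 higher. Indices called higher numbered 9 on the direct arrays alone and 2 against the gene median. With a 2-fold threshold 2 were higher and 1 lower. Of 297 alternatives for the 27 named indices, 283 kept the call, 14 lost it and 0 changed sign. Centring takes the same value from every feature of an array, so it could not change an index. Its 27 results are among the 283 by construction. When a replicate was left out, orientation differences were called in 0 to 31 LUC7L3 features. The calls numbered 0 without replicate 2 and 0 without replicate 3, and 0 over all features in both fits. After centring, with all 6 arrays required and with a robust prior, 47 LUC7L3 features were called. For most alternatives in this section, the share of all features or genes called in the same fit is not given here. A count that moved can therefore not be told apart from a shift over the whole array.

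For the related genes, 16 to 24 were lower and 3 to 11 higher when a replicate was left out, with 3 higher without replicate 3. A 1.3-fold threshold left 9 lower, beside 18.8% of all genes, and 1 higher. Signs changed for SNRPA (0.13) and SNRPB (0.13) on the direct arrays alone, for SNRPD3 (-0.28) on the same arrays and for SNRPD1 (0.20) on the dye-swap arrays alone. NCBP1, at -0.00 with all replicates, was 0.00 without replicate 1, -0.03 without replicate 2, 0.02 without replicate 3, 0.10 on the dye-swap arrays alone, 0.00 after centring and 0.01 as the gene median. The cause was not tested.

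Without the replicate block, with the 6 arrays as independent values, 59 LUC7L3 features were lower and 2 higher, 23 indices were lower and 4 higher, the gene log2 ratio was -0.40, and 19 related genes were lower and 9 higher. With the replicate block as a random effect and a dye term, the features were 70 and 2, the indices 23 and 4, the gene -0.40 and the related genes 21 and 9. SNRPB lost its call without the block, and SNRPD1 in both fits, while SNRNP70 gained a call as higher without the block (adjusted p = 0.0372), after centring (0.048) and with all 6 arrays required (0.0405). Precision is limited by the 3 replicates, each on a direct and a dye-swap array, and signal over background was not used here.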
